A study of Capra hircus with 6 samples.

Results

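The insulin-like growth factor (IGF) family was examined in secondary hair follicle dermal papilla cells (SHF-DPCs) of the cashmere goat, cultured with or without all-trans retinoic acid (ATRA), the vitamin A derivative that activates the RAR nuclear receptors. The members were chosen by name. They are the ligands IGF1 and IGF2, the receptor IGF1R, and the binding proteins IGFBP2, IGFBP3, IGFBP4, IGFBP5, IGFBP6, and IGFBP7. These 9 genes were found among the 15944 genes of the table, and 8 of them passed the expression filter, which kept 12588 genes in all. IGF2 did not pass it.

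RNA-seq was performed on 3 control libraries and 3 ATRA libraries. All 6 came from wild-type primary cultures of skin, outgrown from the follicles of 3-year-old Albas cashmere goats and used between passages 4 and 7, and all carry the same batch label. The control group received culture medium, and the ATRA-treated group received medium with ATRA at 100 µM for 24 h. Both groups grew in medium with 10% fetal bovine serum, which brings IGFs and binding proteins of its own that mRNA sequencing does not see. The paper's methods give 3 animals as the source of the cells, but the labels do not say which library came from which animal.

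IGF1 and IGF2 are small secreted growth factors that resemble insulin. They act through IGF1R, a receptor tyrosine kinase that passes the signal through IRS and SHC adaptors to PI3K, AKT, and mTORC1 and keeps the FOXO transcription factors out of the nucleus. The IGFBPs hold the ligands in the extracellular space, and proteases that cut an IGFBP set its ligand free. In the hair follicle, the dermal papilla is a known source of IGF1 for the epithelial matrix cells above it, and IGF signalling is associated with the growth phase of the hair cycle.

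Total counts lay between 36887160 and 38012771 in the control group and between 35532339 and 36870939 in the ATRA-treated group. No pair of libraries within a group matched within sampling noise (chi-square per degree of freedom of 5.01 to 18.4), and ATRA replicate 2 stood farther from the other ATRA libraries (17.3 and 18.4) than they did from each other (5.01). Levels are given as normalized CPM, which sets the reads of a gene against the library size as scaled by the TMM method of edgeR. The test was the two-sided quasi-likelihood F-test of edgeR, with p-values adjusted by Benjamini-Hochberg across every gene tested, and a gene was called when its adjusted p was under 0.05.

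The labelled cell type was checked against markers. Of 14 dermal papilla and mesenchyme genes, 10 were tested, 9 of which fell with ATRA, where 38.7% of all genes tested were called lower and 40.9% higher. The summed level of the 14 dropped from between 57438 and 60247 normalized CPM in the control libraries to between 2568 and 2646 in the ATRA libraries. VIM, COL1A1, VCAN, and ACTA2 (whose reads could be shared with near-identical actin genes) were abundant in the control group, whereas ALPL, CORIN, and PROM1 had at most 1 count in any library. SOX2 went the other way, from 5, 0, and 2 counts to 10, 16, and 9 with ATRA, too few to be tested. SOX18 did not pass the test (log2FC 0.47, adjusted p = 0.326 by edgeR). The paper identifies the cells by antibody staining of 2 proteins, alpha-SMA, encoded by ACTA2, and CD133, encoded by PROM1. ACTA2 had 7098, 6206, and 6442 CPM in the control libraries and 9.18, 7.53, and 8.39 CPM with ATRA. On PROM1 the transcripts do not bear out the label, but mRNA counts are not a measure of the stained protein. SHF-DPCs is used here as the name the labels give. Markers of other cell types were also read. The sum of the listed keratinocyte markers (6 of 7 listed) went from 3.11–4.98 to 5.37–5.97 CPM, of the endothelial markers (5 of 5) from 0.903–1.24 to 6.19–9.16 CPM, and of the leukocyte markers (3 of 5) from 9.15–12.8 to 41.2–44.0 CPM. The melanocyte markers (2 of 5) went from 3.80–4.30 to 1.97–2.34 CPM, those of smooth muscle and pericytes (4 of 4) from 131–154 to 3.24–3.52 CPM, and those of adipocytes (2 of 4) from 0.866–1.84 to 2.45–3.22 CPM. The smooth muscle sum was carried by CNN1, which fell from 141 ± 11.3 to 2.91 ± 0.265 CPM (SD, n = 3). DES fell as well (log2FC -1.60, adjusted p = 0.00475 by edgeR). MYH11 did not pass the test (log2FC -0.24, adjusted p = 0.660 by edgeR), and RGS5 had at most 5 counts in any library. The endothelial sum was carried by PECAM1, an adhesion molecule of endothelial cells, with 0 reads in every control library and 242, 340, and 206 with ATRA. TEK rose as well (adjusted p = 0.0122 by edgeR). KDR went the other way, from 5, 6, and 10 counts to 2, 1, and 0, too few to be tested. VWF did not pass the test (log2FC 0.06, adjusted p = 0.909 by edgeR), and CDH5 had 0 counts in every library but 1. The leukocyte sum was carried by CD14 (mean of 6.91 CPM in the control group and 31.3 CPM with ATRA) and CD68 (4.14 and 11.0 CPM). CD3E had at most 5 counts in any library. In the keratinocyte list KRT10 rose (log2FC 0.82, adjusted p = 0.000328 by edgeR) and CDH1 went from 0 to 1 or 2 counts per library. KRT14 went the other way, from 20, 14, and 10 counts to 3, 0, and 0, and KRT5 from 2, 7, and 3 to 0 in every ATRA library. EPCAM had 0, 1, and 0 counts and then 1, 5, and 2, and TP63 had at most 1 count in any library. Of these only KRT10 had enough reads to be tested. These markers were named after their values were seen. The part of these shifts in the changes of the IGF family was not tested.

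In the ATRA-treated group, 7 of the 8 tested members fell and 1 rose. IGF1 was almost lost. IGF1R, IGFBP2, IGFBP4, IGFBP5, and IGFBP7 fell with log2 fold changes (log2FC) from -3.31 to -1.26. IGFBP3 had a log2FC of -0.51, and IGFBP6 rose with a log2FC of 1.71. In each of the 8 genes every ATRA library lay on one side of every control library. Most genes differed between the groups, as 40.9% of all genes tested were called higher and 38.7% were called lower with ATRA. Of the 8 tested members, 1 (IGFBP6) was called higher and 7 were called lower, which has to be read against these shares. With the stricter threshold of |log2FC| above 1 and an unadjusted p under 0.05, 13.7% of all genes were higher and 17.3% lower, and the family held 1 higher and 6 lower, all but IGFBP3. Groups that did not overlap were found for 41.2% of all genes in the higher direction and 39.0% in the lower, and for 1 and 7 members. The median log2FC of the 8 members was -1.51, and that of all genes tested was 0.04. Whether a lower value reflects less RNA per cell or fewer cells that express the gene cannot be told apart in these bulk cultures.

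**Figure D1:**
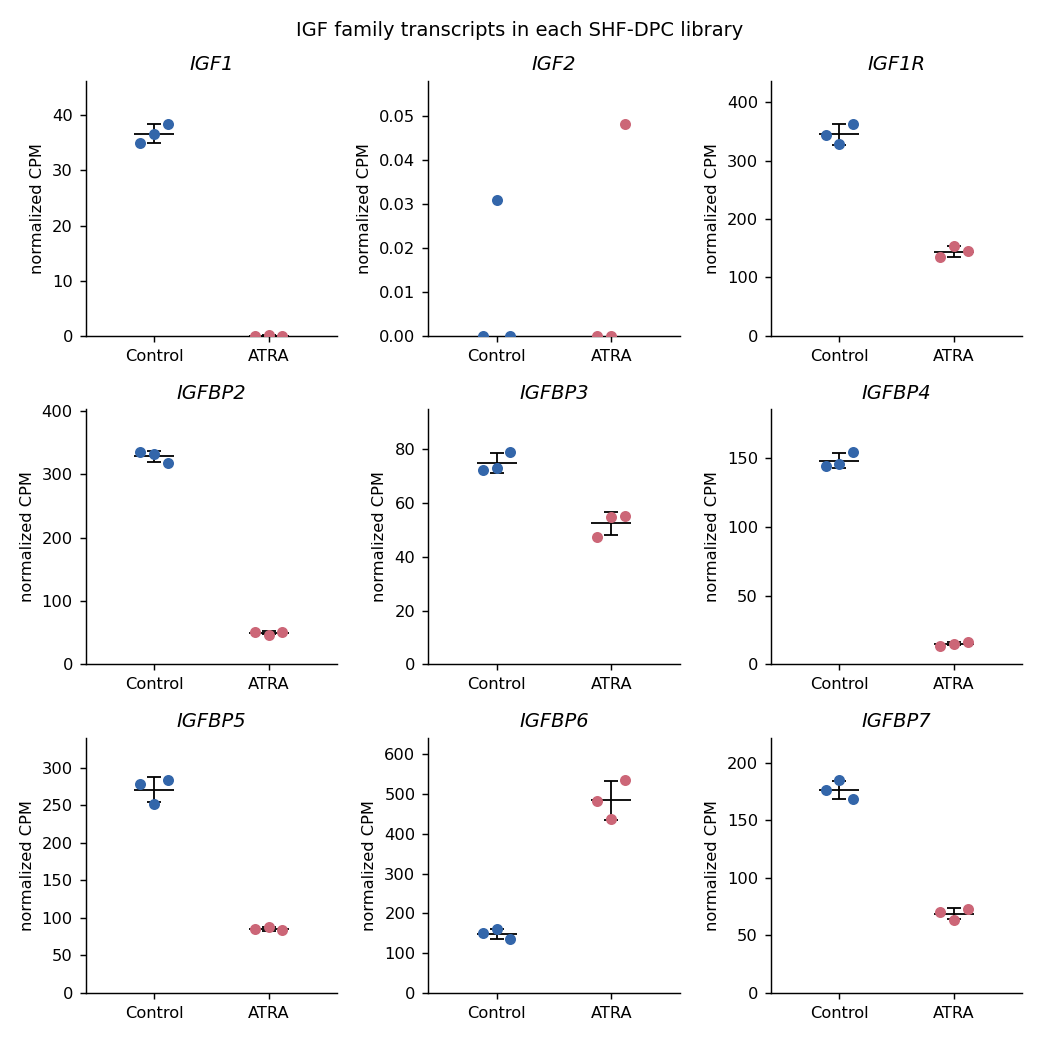
Normalized CPM (vertical axis, starting at 0, with a scale of its own in each panel) of the 9 IGF family genes in each of the 3 control (blue) and 3 ATRA (red) libraries, with the mean and SD as black bars for the tested genes. The groups do not overlap in 8 panels, IGFBP6 is the only panel of these in which the ATRA libraries are the higher ones, and the IGF2 points stand for 0 to 2 counts.

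Of the ligands, IGF1 was present in the control group and close to 0 with ATRA. The control libraries held 1085, 1185, and 1237 reads of IGF1, and the ATRA libraries held 3, 4, and 3. In normalized CPM, this was 35.0, 36.6, and 38.5 for the control libraries and 0.0694, 0.0907, and 0.0725 for the ATRA libraries. All 3 ATRA libraries therefore sat at or next to the floor of 3 counts, and the libraries of each group lay close together. The summed counts of 3507 and 10 give a ratio of 473 for control over ATRA after scaling, with a 95% interval of 257 to 986 that covers counting error only (exact binomial). The fitted log2FC was -8.82 (standard error 0.166, adjusted p = 7.98e-19 by edgeR's quasi-likelihood test), the 23rd lowest among the 12588 genes tested. That figure rests on few ATRA reads, and the fitted fold of 453 for control over ATRA lay within the counting interval. With a pseudocount of 1 on the group means, the log2 ratio was -5.13, nearer to 0 because 1 CPM is well above the ATRA level.

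IGF2, the other ligand, was not detectable at this depth in either group. The control libraries held 0, 1, and 0 reads and the ATRA libraries 0, 0, and 2. Both groups were at or under the floor of 3 counts per library, so IGF2 was not tested and no fold is given. Insulin itself (INS) was not analysed here. Of the 2 ligand genes, IGF1 was thus the one with reads well above the floor, and it was so in the control libraries only.

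IGF1R, the receptor that binds both ligands, had 343, 328, and 363 CPM in the control libraries. With ATRA it had 135, 153, and 145 CPM. No ATRA library reached the lowest control library, and the transcript was still abundant with ATRA, at 5824 to 6764 reads per library. The mean fell from 345 ± 17.8 to 144 ± 9.32 CPM (SD, n = 3), a log2FC of -1.26 (standard error 0.0618, adjusted p = 1.13e-12). The insulin receptor INSR, which can pair with IGF1R into hybrid receptors, moved the other way. INSR had 15.7, 13.9, and 17.4 CPM in the control group and 42.9, 47.7, and 44.5 CPM with ATRA, a log2FC of 1.52 (standard error 0.0863, adjusted p = 9.49e-12). IGF2R, the mannose 6-phosphate receptor that takes up IGF2 for degradation, was slightly higher with ATRA. Its mean was 206 ± 7.60 CPM in the control group and 234 ± 11.5 CPM with ATRA (SD, n = 3), with a log2FC of 0.18 (standard error 0.0568, adjusted p = 0.00683). INSRR, an orphan receptor of the same kinase family, had 0 counts in all control libraries and 4, 6, and 2 counts with ATRA, too few to be tested.

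Of the binding proteins, IGFBP2 and IGFBP4 fell the most. IGFBP4, an inhibitor of IGF action that is cut by the protease PAPPA, had 144, 145, and 154 CPM in the control libraries and 13.7, 15.1, and 15.9 CPM in the ATRA libraries. The highest ATRA library was far under the lowest control library. The log2FC was -3.31 (standard error 0.0715, adjusted p = 4.99e-18), that is, 9.92-fold lower. IGFBP2, which also carries an integrin-binding motif, had 335, 331, and 318 CPM in the control group. In the ATRA-treated group it had 51.6, 47.0, and 51.6 CPM. These 6 values formed a pair of tight clusters, 6.55-fold apart by the fit, and the log2FC was -2.71 (standard error 0.0606, adjusted p = 7.83e-18).

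IGFBP5 and IGFBP7 fell by less. IGFBP5, which binds the extracellular matrix and is a substrate of several of the proteases described below, had 278, 252, and 283 CPM in the control group and 84.7, 88.4, and 83.7 CPM with ATRA. Its log2FC was -1.66 (standard error 0.0600, adjusted p = 1.01e-14). IGFBP7, a relative that binds IGFs with low affinity and insulin as well, had 176, 185, and 169 CPM and then 70.3, 63.6, and 72.9 CPM. Its log2FC was -1.36 (standard error 0.0638, adjusted p = 5.64e-13). Both genes kept between 2806 and 3900 reads in every ATRA library.

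IGFBP3, the main carrier of IGFs in serum and a partner of IGFALS in the ternary complex, was the member whose change was smallest. The control libraries had 72.5, 73.0, and 79.0 CPM and the ATRA libraries 47.5, 54.7, and 55.2 CPM. The groups were apart after TMM scaling, with a log2FC of -0.51 (standard error 0.0704, adjusted p = 2.54e-06). The raw counts, however, overlapped, at 2249, 2361, and 2537 reads in the control group and 2055, 2413, and 2283 with ATRA. With library size in place of TMM the log2FC was -0.03 (adjusted p = 0.668 by the same edgeR test), so whether IGFBP3 fell depends on the scaling.

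IGFBP6, which binds IGF2 in preference to IGF1, was the member that rose. It had 149, 160, and 134 CPM in the control libraries and 482, 436, and 534 CPM in the ATRA libraries. The lowest ATRA library was well above the highest control library, in raw reads too (19237 against 5176). The mean went from 148 ± 12.8 to 484 ± 49.0 CPM (SD, n = 3), 3.27-fold higher, with a log2FC of 1.71 (standard error 0.0770, adjusted p = 5.54e-13). Across the 8 tested members the coefficient of variation within a group ranged from 2.76% to 14.8%, and for each of them the difference between the group means was larger than the SD of either group.

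The scaling matters for the size of these changes. The TMM factors averaged 0.847 for the control libraries and 1.18 for the ATRA libraries, and the median log2FC of all genes was 0.04 with TMM, 0.02 with RLE, 0.11 with upper-quartile scaling, and 0.52 with library size only. Library size only gave -0.78 for IGF1R and -0.88 for IGFBP7, both still called (adjusted p = 8.55e-09 and 1.60e-09) but no longer past |log2FC| of 1, and 2.19 for IGFBP6. The split of the calls over all genes moved as well, from 51.4% higher with TMM to 73.5% higher. With TMM, IGFBP3 stood 0.55 under the median of all genes and IGFBP6 1.67 above it. A change of scaling moves all genes together, so these distances carry no information on whether IGFBP3 itself fell.

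**Figure D2:**
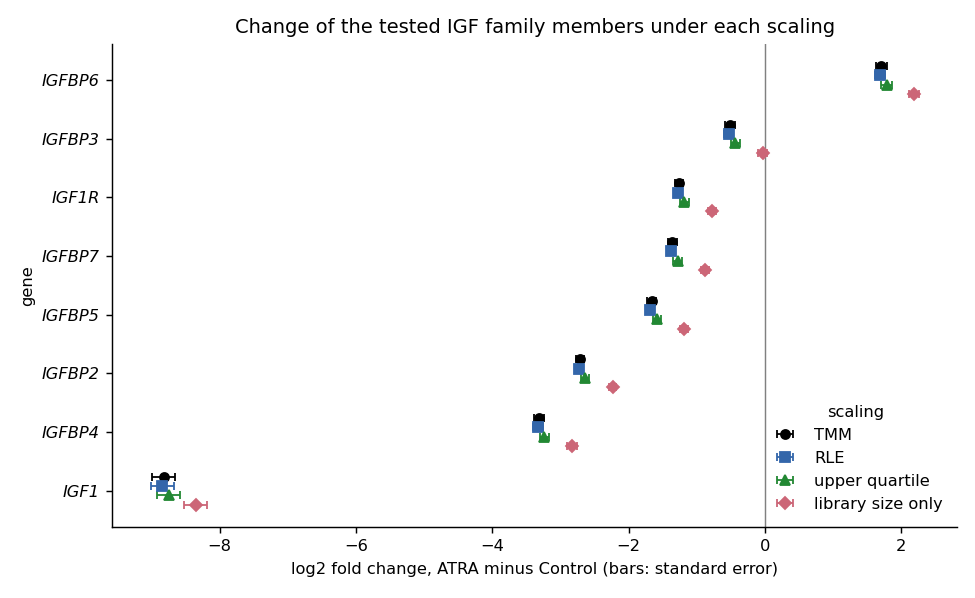
log2 fold change of ATRA over control (horizontal axis, bars are the standard error) for the 8 tested members under TMM, RLE, upper-quartile, and library-size scaling. The points of each gene shift together to the right with library size only, where IGFBP3 reaches -0.03, and the order of the 8 genes is the same under each scaling.

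The makeup of the binding-protein transcripts within a library does not depend on scaling, because only reads of the same library are divided by each other. Of the reads on IGFBP2 to IGFBP7, IGFBP6 took 12.9%, 14.0%, and 11.8% in the control libraries and 64.3%, 61.9%, and 65.7% in the ATRA libraries. IGFBP2 went from 28.6% ± 0.577 to 6.63% ± 0.269 (SD, n = 3), and IGFBP4 from 12.9% ± 0.575 to 1.98% ± 0.152. IGFBP5 went from 23.7% ± 1.50 to 11.4% ± 1.13 and IGFBP7 from 15.4% ± 0.660 to 9.12% ± 0.224. These 4 shares were lower in each ATRA library than in any control library. IGFBP3 kept its place, with 6.53% ± 0.365 in the control group and 6.96% ± 0.727 with ATRA, and the groups overlapped. The shares are of reads, not per transcript length, so they are compared between groups for each gene and not between genes.

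**Figure D3:**
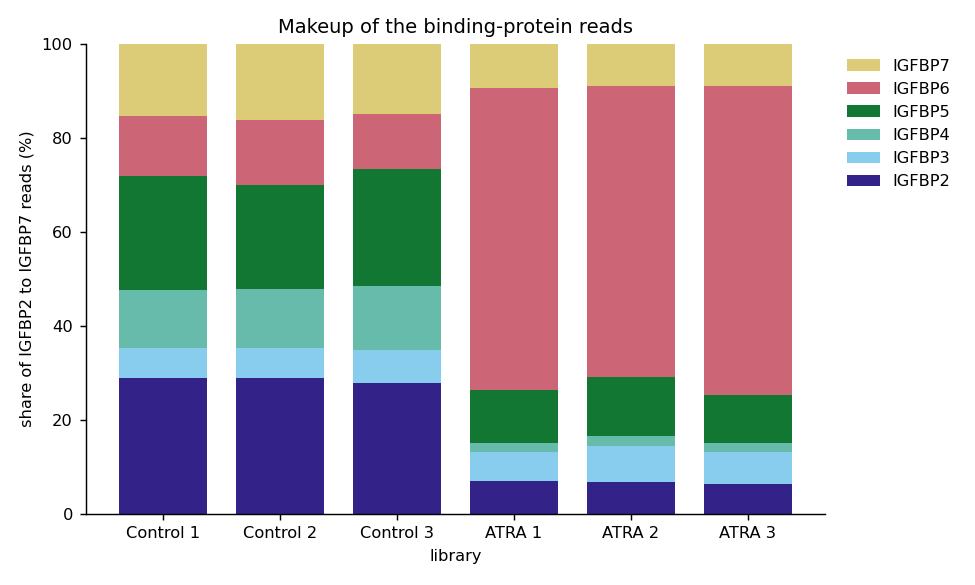
Share of the reads on IGFBP2 to IGFBP7 (vertical axis, percent) held by each of the 6 binding proteins in the 3 control and 3 ATRA libraries. IGFBP6 widens from 11.8–14.0% of the bar in the control libraries to 61.9–65.7% in the ATRA libraries, and IGFBP2 and IGFBP4 narrow.

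Since 1 rising gene lowers the shares of the others, the shares were also taken among the 5 remaining binding proteins, an alternative added after the data were seen. Among these, IGFBP2 still went down from 32.9% ± 1.02 to 18.4% ± 0.886 (SD, n = 3) and IGFBP4 from 14.8% ± 0.529 to 5.48% ± 0.308. IGFBP3 then went up from 7.49% ± 0.347 to 19.3% ± 1.36, IGFBP7 from 17.7% ± 0.972 to 25.3% ± 1.45, and IGFBP5 from 27.1% ± 1.41 to 31.5% ± 1.47. The groups did not overlap for any of the 5. The 5 genes thus changed unequally, and IGFBP2 and IGFBP4 lost reads relative to IGFBP3, IGFBP5, and IGFBP7. The summed level of all 6 binding proteins was 1155, 1146, and 1137 CPM in the control libraries and 750, 705, and 813 CPM with ATRA. Without IGFBP6 it went from 998 ± 10.4 to 272 ± 6.36 CPM (SD, n = 3). Unlike the shares, these sums depend on the scaling. They were taken with TMM only, whose factors averaged 0.847 in the control libraries and 1.18 in the ATRA libraries. How far the sums fell under another scaling was not tested.

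The other genes of the IGF pathway were taken as 9 lists of 58 genes, of which 56 were in the table and 50 were tested. With ATRA 23 rose, 17 fell, and 10 did not pass the test (edgeR, adjusted p under 0.05). Their median log2FC was 0.10, near that of all genes (0.04), and the shares called in each direction can be read against the 40.9% and 38.7% of all genes. This split depended on the scaling, because library size only gave 36 higher and 9 lower. With |log2FC| above 1 and TMM, there were 11 higher and 6 lower, beside the 13.7% and 17.3% of all genes.

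Of the IGFBP proteases and their inhibitors, 4 genes were tested, and 1 was called higher and 3 lower. This has to be read against the 40.9% of all genes tested that were called higher and the 38.7% called lower. PAPPA, the metalloprotease that cuts IGFBP4 and IGFBP5, had 654, 642, and 768 reads in the control libraries and 22, 39, and 28 with ATRA. This was a log2FC of -4.96 (standard error 0.158, adjusted p = 1.50e-15) with no overlap between the groups. STC2, the stanniocalcin that binds PAPPA and blocks it, moved in the opposite direction, from 113, 142, and 121 reads to 2878, 2969, and 2948 reads. Its log2FC was 4.12 (standard error 0.0911, adjusted p = 7.02e-18). ADAM12, a metalloprotease that cuts IGFBP3 and IGFBP5, fell from 194 ± 10.6 to 11.4 ± 0.980 CPM (SD, n = 3), a log2FC of -4.08 (standard error 0.0762, adjusted p = 6.93e-19). HTRA1, a secreted serine protease for which IGFBP5 is a substrate, fell from 808 ± 33.8 to 227 ± 6.21 CPM (SD, n = 3), a log2FC of -1.83 (standard error 0.0587, adjusted p = 1.69e-15). The 3 proteases thus fell while the inhibitor rose, and their IGFBP4 and IGFBP5 substrates fell as well. IGFBP3, the other substrate named, was called lower with TMM but not with library size only (log2FC -0.03, adjusted p = 0.668 by edgeR). The other 2 genes of the list, STC1 and PAPPA2, had at most 8 counts in any library and were not tested.

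Among the remaining binding proteins, IGFBP1, which is induced in liver when insulin is low, had 1, 0, and 0 reads in the control group and 62, 62, and 52 with ATRA. The summed counts of 176 and 1 give a ratio of 131 after scaling, with a 95% counting interval of 23.1 to 5187. Its level with ATRA stayed low at 1.37 ± 0.0955 CPM (SD, n = 3). IGFALS, the acid-labile subunit of the ternary complex, had 4 to 15 reads in the control libraries and 8 to 27 with ATRA, and its log2FC of 0.41 (standard error 0.552) did not pass the test (adjusted p = 0.498 by edgeR). IGFBPL1 was not analysed here. Of the IGF2 mRNA-binding proteins, which bind the IGF2 message among many others, IGF2BP2 rose from 4.26 ± 0.541 to 19.2 ± 0.928 CPM (SD, n = 3), a log2FC of 2.17 (standard error 0.111, adjusted p = 2.16e-12). IGF2BP3 had a log2FC of 0.08 (adjusted p = 0.660 by edgeR) and overlapping groups, and IGF2BP1 had at most 5 counts in any library.

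Downstream of the receptor, the adaptors and kinases did not move as a block. The counts of these lists stand beside 40.9% of all genes tested called higher and 38.7% called lower. Of 8 tested adaptors, 2 rose, 3 fell, and 3 did not pass. IRS2, one of the docking proteins for IGF1R and INSR, rose from 7.41, 9.06, and 8.62 CPM to 31.1, 34.0, and 32.8 CPM, a log2FC of 1.96 (standard error 0.0921, adjusted p = 5.40e-13). IRS1, the related docking protein, had a log2FC of -0.62 (standard error 0.0912, adjusted p = 5.66e-06) and was singled out beside IRS2 after its values were seen. The IRS1 value is with TMM and depends on the scaling. The median log2FC of all genes was 0.04 with TMM and 0.52 with library size only. SHC1, which links the receptor to the RAS route, fell from 316 ± 6.04 to 153 ± 3.41 CPM (SD, n = 3), a log2FC of -1.05. The log2FC of SHC1 was -0.97 with upper-quartile scaling and -0.57 with library size only, no longer past |log2FC| of 1. Of 12 PI3K-AKT genes, 3 rose, 5 fell, and 4 did not pass. The catalytic subunit gene PIK3CB rose by a log2FC of 2.63 (standard error 0.156) from a low 2.02 ± 0.492 CPM (SD, n = 3), and the regulatory subunit gene PIK3R1 by 1.20 (standard error 0.0674), while another regulatory subunit gene, PIK3R3, had a log2FC of -1.41 (standard error 0.131). Of 8 genes of the mTORC1 list, which includes the mTORC2 subunit gene RICTOR, 5 rose, 2 fell, and 1 did not pass, none with a change of more than 1 on the log2 scale. With library size only, the log2FC of GRB10, PIK3CA, MTOR, and GSK3B turned from negative to positive, and that of PIK3R3 was -0.93.

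**Figure D4:**
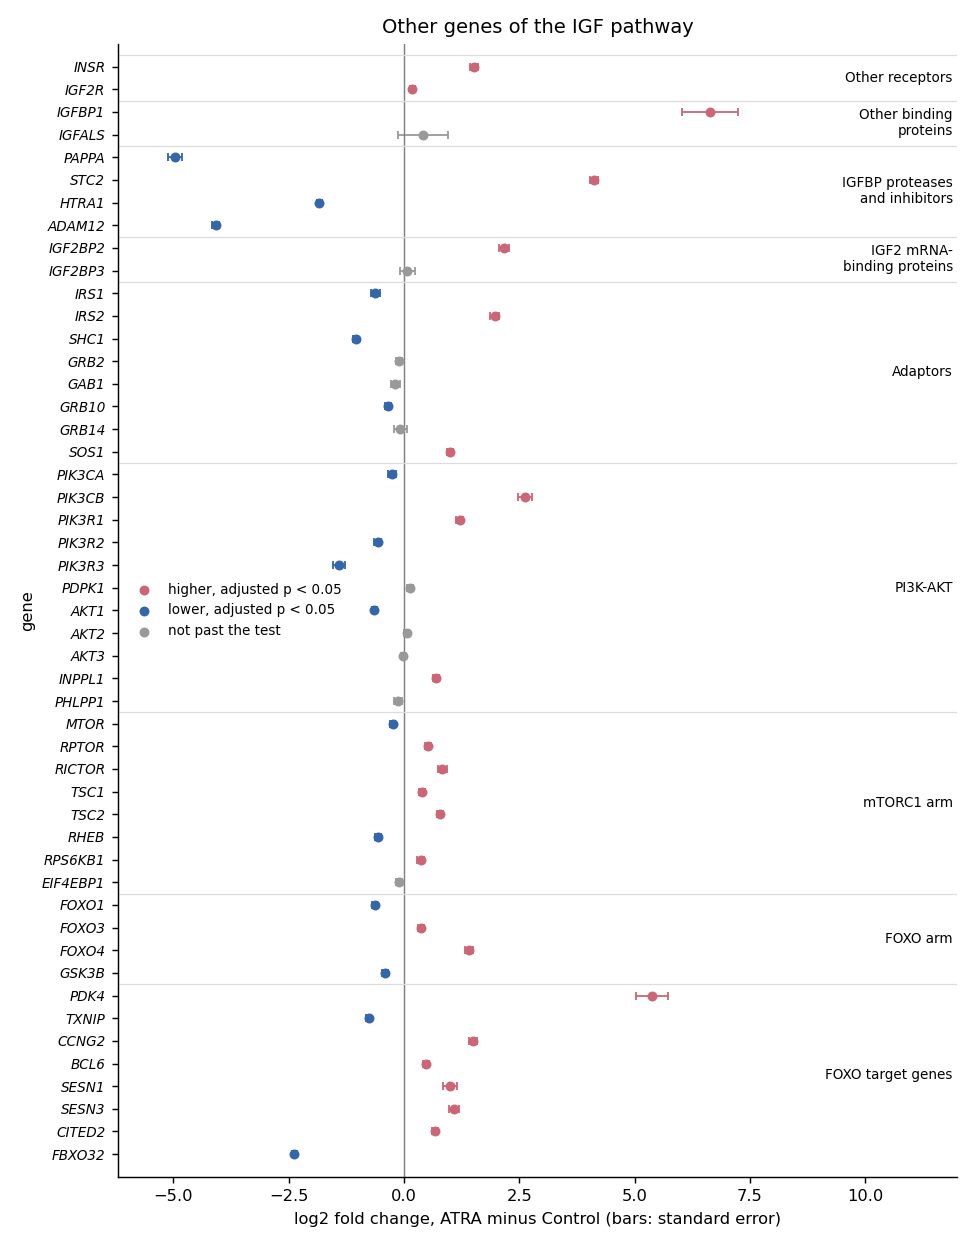
log2 fold change of ATRA over control (horizontal axis, bars are the standard error) for 49 tested genes of the IGF pathway outside the family, grouped by list. Red marks the 23 genes that rose, blue 16 that fell, and grey the 10 that did not pass the test, and PAPPA and STC2 lie on opposite sides at -4.96 and 4.12. The position of IGFBP1 rests on 1 control read.

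The FOXO transcription factors, which AKT holds inactive when IGF signalling is on, changed in both directions. FOXO4 rose from 14.3 ± 0.604 to 37.9 ± 2.39 CPM (SD, n = 3), a log2FC of 1.41 (standard error 0.0807, adjusted p = 1.09e-11), and FOXO3 rose by 0.36. With TMM, FOXO1 fell by 0.64 on the log2 scale, and GSK3B, a kinase that AKT inhibits, fell by 0.40. Both values depend on the scaling. Of 8 tested genes known as FOXO targets, 6 rose and 2 fell, where 40.9% of all genes tested were called higher and 38.7% lower. With |log2FC| above 1 there were 3 higher and 1 lower, beside 13.7% and 17.3% of all genes. PDK4, which shuts down pyruvate use in mitochondria, went from 1, 2, and 5 reads to 142, 170, and 154 reads, a log2FC of 5.38 (standard error 0.348, adjusted p = 6.98e-11). With so few control reads its size depended on the library, and without control replicate 3 the log2FC was 6.16. CCNG2, an atypical cyclin of resting cells, rose by a log2FC of 1.50 (standard error 0.0808), and the stress sensor SESN3 by 1.08 (standard error 0.111). The muscle atrophy ubiquitin ligase FBXO32 went the other way, from 493 ± 9.30 to 95.0 ± 2.94 CPM (SD, n = 3), with a log2FC of -2.38 (standard error 0.0567, adjusted p = 2.04e-17). The members of the list therefore did not share a direction.

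Several IGFBP genes stand in pairs in the genome. IGFBP2 and IGFBP5 are next to each other in the RefSeq gene order of the goat assembly ARS1.2, and both fell (log2FC -2.71 and -1.66). IGFBP1 and IGFBP3 are also neighbours, but their log2FC were 6.63, from 1 control read (8.72 without control replicate 1), and -0.51. IGFBP6 lies between SOAT2 and SPRYD3, which were both higher with ATRA (log2FC 4.23 and 0.59). IGFBP4 lies between TOP2A, a gene of dividing cells (log2FC -6.51, adjusted p = 3.42e-18 by edgeR), and TNS4 (log2FC -0.43, adjusted p = 0.350). IGF1R lies beside SYNM, which rose by a log2FC of 0.63 while IGF1R fell. Adjacent genes therefore moved together in some cases and apart in others. The neighbours of IGF1, IGF2, and IGFBP7 were not analysed here.

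The genes with the pattern most like the member that rose and the member that fell most were sought by Pearson's r of log2 CPM over the 6 libraries, among 8598 genes with a mean of at least 10 CPM. For IGFBP6 these were KAT14, ZNF274, and NARFL (r of 0.9992 to 0.9994), and for IGF1 they were TGFA, KIF14, and CCND1, of which TGFA had an r of 0.99998. The libraries fall into 2 groups of 3, so many genes reach such values: 445 genes had r above 0.99 with IGFBP6 and 1443 with IGF1. The likeness describes the split between the groups and singles out no gene.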

How the data were processed

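mRNA was enriched with oligo(dT) beads, and the authors cleaned the reads with fastp and TrimGalore. The submitters' processing notes name HISAT2, featureCounts, and DESeq2, without versions. The authors deposited raw read counts per gene, whole numbers that were not normalized. The genome build, annotation, and strand setting were not given in the sources used here, so reads shared by overlapping genes could not be traced. All 6 per-sample columns were used. GO and KEGG columns of the table were read as annotation.

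Groups were taken from the sample titles. From the counts, genes were kept by edgeR's filterByExpr, scaled by TMM, and tested with glmQLFit (robust) and glmQLFTest, two-sided, in all 6 libraries with no covariate, with Benjamini-Hochberg adjustment over 12588 genes. The R t.test function of the paper's methods was run as an alternative. Normalized CPM is counts over the filtered library total times the TMM factor. edgeR's prior count was 0.125. The standard error of a log2FC was obtained as |log2FC| over the square root of F. The second threshold (|log2FC| above 1, p under 0.05) is that of the paper's methods. Low counts of 3 or fewer per library were taken as the floor. Counting intervals are exact binomial at 95% and cover counting error only.

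The members and lists were chosen with earlier results of these data known. The lists were other receptors, other binding proteins, IGFBP proteases and inhibitors, IGF2 mRNA-binding proteins, adaptors, PI3K-AKT, mTORC1, FOXO factors, FOXO targets, and markers of 7 cell types. All members were named, with pathway genes past |log2FC| of 1 and adjusted p of 0.05, all genes of lists of 4 or fewer, and genome neighbours. The likeness measure used genes with a mean of at least 10 CPM that are not listed under a LOC number. A result for 1 other pathway gene is not reported here or drawn, and it stays in the counts.

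The p-values measure the spread between these libraries. The alternatives were DESeq2, other scalings, filters and thresholds, the t.test function, a replicate block, and leaving out each library. The test was also run on simulated counts with 200 changed genes, as many up as down, at a fixed dispersion. Most genes differed in the real data, so the simulation cannot show whether the scaling holds there. All 9 members and all 15944 IDs matched a symbol or synonym of the RefSeq table of ARS1.2, which was used for names and gene order only. Transcript lengths and sequences were not used. The tools were Python 3.11.15 with pandas 2.3.3 and matplotlib 3.10.9, and edgeR 4.0.16 (with limma 3.58.1) and DESeq2 1.42.0 in R 4.3.3.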

Additional observations from a re-analysis of the deposited data

How the results depend on the processing

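Across the alternatives of scaling, filter, test, block, and left-out libraries, each of the 8 tested members kept its direction in 15 of 15 alternatives, and 7 of them passed in 14 of 14 tests. IGFBP3 passed in 13 of 14 and lost its call with library size only (log2FC -0.03, adjusted p = 0.668), where the factor that TMM applies is left out. The members called lower then numbered 6, and 4 passed |log2FC| of 1. Leaving out each library in turn moved the log2FC of IGF1 between -8.96 and -8.75, of IGFBP3 between -0.56 and -0.45, of IGFBP6 between 1.62 and 1.77, of IGFBP1 between 6.16 and 8.72 (without control replicate 1), and of PDK4 between 5.01 and 6.16 (without control replicate 3). The pathway lists gave 36 genes higher and 9 lower with library size only and 11 higher and 6 lower with |log2FC| above 1 and p under 0.05, and between 22 and 24 higher and 17 and 18 lower with 1 library left out. Of all calls, 51.4% were higher with TMM and 73.5% with library size only, and of the pathway calls 57.5% and 80.0%. With the replicate block the calls over all genes went from 10028 to 9992, and the family (1 higher, 7 lower) and pathway counts (23 higher, 17 lower) did not change. The labels do not tie a number to an animal. Deviations from the group means correlated at 0.09, 0.03, and -0.08 between libraries of the same number, and not every library correlated best with its own number. Adding 1 to each group's mean CPM gave log2 ratios of -5.13 for IGF1, 1.23 for IGFBP1, -3.74 for PAPPA, 3.81 for STC2, and 2.09 for PDK4, nearer to 0 than the fitted values because a pseudocount shrinks low levels. Shares of the binding-protein reads per transcript length were not run, as no transcript lengths were used. Depth limits IGF2, the control levels of IGFBP1 and PDK4, and the ATRA level of IGF1.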

Other observations

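The GO annotation in the deposited table places 12 genes outside the family under IGF binding or insulin-like growth factor binding, a set taken after the data were seen and counted here without a test. Of these, 9 passed the expression filter, and 6 fell and 3 rose with ATRA (edgeR's quasi-likelihood test, adjusted p under 0.05), where 38.7% of all genes tested were called lower and 40.9% higher. Several are matrix-associated proteins. CTGF, a matricellular protein with an IGFBP-like domain, fell from 1249 ± 33.2 to 128 ± 6.37 CPM (SD, n = 3), a log2FC of -3.29 (standard error 0.0635, adjusted p = 1.07e-18). WISP1, of the same matricellular family, fell from 54.8 ± 2.46 to 7.31 ± 0.776 CPM, a log2FC of -2.91 (standard error 0.0881, adjusted p = 7.42e-16). CRIM1, a membrane protein with an IGFBP-like domain, and the serine protease HTRA3 had log2FC of -2.92 and -2.74, and the proteoglycan ESM1 had a log2FC of -1.57. KAZALD1, a secreted protein with an IGFBP-like domain, had 22, 28, and 29 reads in the control libraries and 128, 149, and 103 with ATRA, a log2FC of 1.83 (standard error 0.227, adjusted p = 6.77e-07). The remaining genes of the 9 were HTRA1, IGF2R, and IGFBP1.

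The same annotation lists IGFBP2, IGFBP3, IGFBP4, IGFBP5, IGFBP6, and IGFBP7 together under regulation of cell growth, a term of 45 genes in the table, and IGFBP3, IGFBP5, and IGFBP6 under fibronectin binding, a term of 13 genes. Of these fibronectin-binding members IGFBP6 was higher with ATRA, and IGFBP3 and IGFBP5 were lower with TMM scaling, IGFBP3 with the dependence on scaling given above. IGF1 and IGF1R carry 0 GO terms in the table and are placed by KEGG in the PI3K-Akt signalling pathway, a set of 314 genes that also holds IGF2.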
